A study of Homo sapiens with 10 samples.

Results

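The genes described here encode the chaperones, disulfide enzymes, stress sensors and degradation factors of the endoplasmic reticulum (ER). They were taken by name, as 45 symbols of known function, from gene tables of poly(A) RNA sequenced from SH-SY5Y cells, a human neuroblastoma line. The choice was made with earlier results of these data known. Of the 45 names, 44 had a row, among 23416 genes of the siRNA table and 23426 of the miRNA table, and 43 reached a mean of 1 FPKM in both tables and were tested. DERL3, a degradation channel protein, was the member below that level. SELS had no row under that symbol, and the row of its other symbol per RefSeq, VIMP, is given separately and is not in the counts.

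Cells were collected 72 h after transfection, in 4 groups. In 1 group an siRNA targeted LncND, a long non-coding RNA, at 100 nM (LncND siRNA, 3 libraries), and its control was a scrambled siRNA (3 libraries). Another received 50 nM of a mimic of the microRNA miR-143-3p (mimic, 2 libraries), and its control was a scrambled miRNA (2 libraries). The dose of the controls is not given in the sources used here. All 4 groups came from 1 cell line, and nothing in the labels tells whether the replicates came from different cultures. The p-values therefore reflect only how far these libraries scatter, in part perhaps for technical reasons. The series title ties LncND, a primate RNA, to Notch signalling and to the sequestration of a miRNA. LncND itself had no row, so its knockdown was not analysed here.

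Proteins that enter the ER are folded there by chaperones of the HSP70 and HSP90 families, by lectin chaperones that bind their sugar chains, and by enzymes that form disulfide bonds or turn proline bonds. When unfolded proteins build up, the sensors IRE1 (gene ERN1), PERK (gene EIF2AK3) and ATF6 start the unfolded protein response, in which the factors XBP1, ATF6 and ATF4 switch on genes for folding and for ER-associated degradation, the export of failed proteins to the proteasome. Promoters of many such genes carry the ER stress response elements ERSE and ERSE-II, which ATF6 and XBP1 bind together with the factor NF-Y.

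The elements found in member promoters are shown because 10 of the 40 members with a promoter window held one. ERSE was searched as the letters CCAAT and, after 9 bases of any kind, CCACG. ERSE-II was searched as ATTGG and, after 1 base of any kind, CCACG, and a further motif, UPRE, as TGACGTGG. The search covered both strands of RefSeq promoter windows (GRCh38.p14), which run 250 bases before to 50 after each gene's start. Windows were found for 40 of the 45 names. Each element is read 5′ to 3′ along the motif with the bases that fix it in capitals. The elements of HSPA5, CANX, XBP1 and HERPUD1, and the HSP90B1 element shown, lie on the gene's own strand, and those of CALR, HYOU1, SDF2L1, CRELD2 and ERO1LB on the opposite strand.
HSPA5 ERSE, chr9:125241389-125241411: caCCAATcggcggcctCCACGac
HSP90B1 ERSE, chr12:103930214-103930236: gaCCAATcggaaggagCCACGct
CALR ERSE, chr19:12938382-12938404: gaCCAATgatggtcgaCCACGcg
CANX ERSE, chr5:179698776-179698798: ggCCAATcttcacactCCACGaa
CRELD2 ERSE, chr22:49918552-49918574: gcCCAATccgagttcgCCACGag
XBP1 ERSE, chr22:28800601-28800623: ggCCAATcgcggagggCCACGac
ERO1LB ERSE, chr1:236282181-236282203: ggCCAATgaggcgggaCCACGcg
HYOU1 ERSE-II, chr11:119057378-119057392: ggATTGGaCCACGtc
HYOU1 second ERSE-II, chr11:119057272-119057286: tcATTGGaCCACGtc
SDF2L1 ERSE-II, chr22:21642112-21642126: tgATTGGtCCACGct
HERPUD1 ERSE-II, chr16:56932023-56932037: cgATTGGgCCACGtt

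An ERSE stood in 7 of the 40 member windows (17.5%), against 22 of all 27305 windows (0.0806%). An ERSE-II stood in 3 of 40 (7.5%), against 15 of 27305 (0.0549%), and HSP90B1 and HYOU1 each held a pair of elements. Together the ERSE and ERSE-II matches named 10 of 40 members and 37 windows in all. The shorter UPRE stood in 3 member windows (HYOU1, TXNDC11 and DNAJC10, 7.5%), against 0.795% of all windows, and the HYOU1 match overlapped its first ERSE-II. These counts describe the letters of the windows and not binding.

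The mimic stands for the mature microRNA, which RefSeq lists at chr5:149428978-149428998 (GRCh38.p14, plus strand). It is shown, with its seed (bases 2 to 8) in capitals, because matches to the seed in 3′ untranslated regions (UTRs) mark candidate targets.
hsa-miR-143-3p: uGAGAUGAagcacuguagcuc
For each gene the GENCODE 29 coding transcript with the longest 3′ UTR was searched, taken from the principal transcripts where there were any. A 7-base or 8-base match (TCATCTC, or CATCTCA) stood in the 3′ UTR of 12 of 43 tested members (27.9%), against 2545 of 11747 tested genes (21.7%). ERP44, DNAJC3, DNAJC10, ERN1 and FKBP14 held a 7-base match that is not shown. The 3 members with the full 8-base match follow, and then the 4 with a 7-base match that fell most with the mimic, with the match in capitals.
EIF2AK3, 3′ UTR bases 823 to 830: cagtttaaTCATCTCActtgctaa
SEL1L, 3′ UTR bases 3712 to 3719: gcagggaaTCATCTCAcatgctgt
HSPA13, 3′ UTR bases 1950 to 1957: caggcagcTCATCTCAtgtcctga
CALR, 3′ UTR bases 288 to 294: cccttctcTCATCTCttagctcc
HYOU1, 3′ UTR bases 23 to 29: ttccccatTCATCTCcaccccct
PDIA6, 3′ UTR bases 165 to 171: aacttttgCATCTCAagaaaaca
EDEM1, 3′ UTR bases 1974 to 1980: aaatagagCATCTCAgagaagga

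Values are FPKM as the authors deposited them, a level per transcript length in which the fragments of a gene are divided by its kilobases and by the fragments mapped in that library. Depth, estimated from the steps between low FPKM values, ran from 13.9 to 44.2 M fragments a library. The 2 tables were normalized separately, and levels from both are only set side by side. Of the noradrenergic neuroblastoma markers 13 of 14 were at 1 FPKM or more, as were 5 of 6 fibroblast markers, 1 of 6 Schwann and glial markers, at most 1 of 6 epithelial and at most 1 of 7 blood and endothelial markers. GFAP, SOX10, CDH1, PTPRC, PECAM1 and HBB were below 0.1 FPKM in every library. LncND siRNA replicate 1 stood apart, with correlations of 0.988 and 0.989 across genes to the other LncND siRNA libraries, which correlated at 0.996 with each other. Of the 43 tested members 30 were higher in it than in the mean of the other LncND siRNA libraries (median difference 0.062 on the log2 scale, against 0.0064 for all genes), so results are also given without it where they change. Which strand the counting used is not given in the sources used here. PDIA6, PPIB and CREB3L2 share 1720, 1667 and 4619 bases with ATP6V1C2, SNX22 and LOC100130880, so their values may hold reads of those genes. In the siRNA table those genes were listed at means of 0.82, 1.13 and 0.001 FPKM, beside 196, 310 and 11.9 FPKM for PDIA6, PPIB and CREB3L2.

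Most of these genes fell with the mimic, and with LncND siRNA they split. With the mimic, 35 of the 43 members passed, against 63.3% of the 12558 genes tested, and with LncND siRNA 25 of 43 passed, against 66.9% of 12601 genes. With the mimic 32 fell (74.4%), against 38.6% of genes, and 3 rose (6.98%), against 24.6%. With LncND siRNA, 15 fell (34.9%), against 30.3% of genes, and 10 rose (23.3%), against 36.6%, so the share that fell was near that of all genes. The median log2 fold change of the members was -0.35 with the mimic, where that of all genes was -0.062, and -0.023 with LncND siRNA, where that of all genes was 0.024. Both mimic libraries were below both scrambled miRNA libraries for 36 members (48.2% of all genes) and above them for 3 (33.7%), and all LncND siRNA libraries were below all scrambled siRNA libraries for 17 (32.2%) and above them for 10 (38.7%). Changes of at least 1.5-fold were seen with the mimic in 13 members that fell and 2 that rose, against 9.13% and 3.98% of all genes, and with LncND siRNA in 2 that fell and 1 that rose, against 4.06% and 8.28%. A gene is said to rise, fall or pass where limma gave an adjusted p under 0.05, and log2 fold changes, given ± SE, are of FPKM + 1, a scale that understates the change of genes near 1 FPKM. Of all calls with the mimic 38.9% were rises as deposited, and 49.2% and 51.8% were under median-ratio scaling and quantile normalization. Under median-ratio scaling and quantile normalization 29 and 26 members fell with the mimic and 3 rose.

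**Figure D1:**
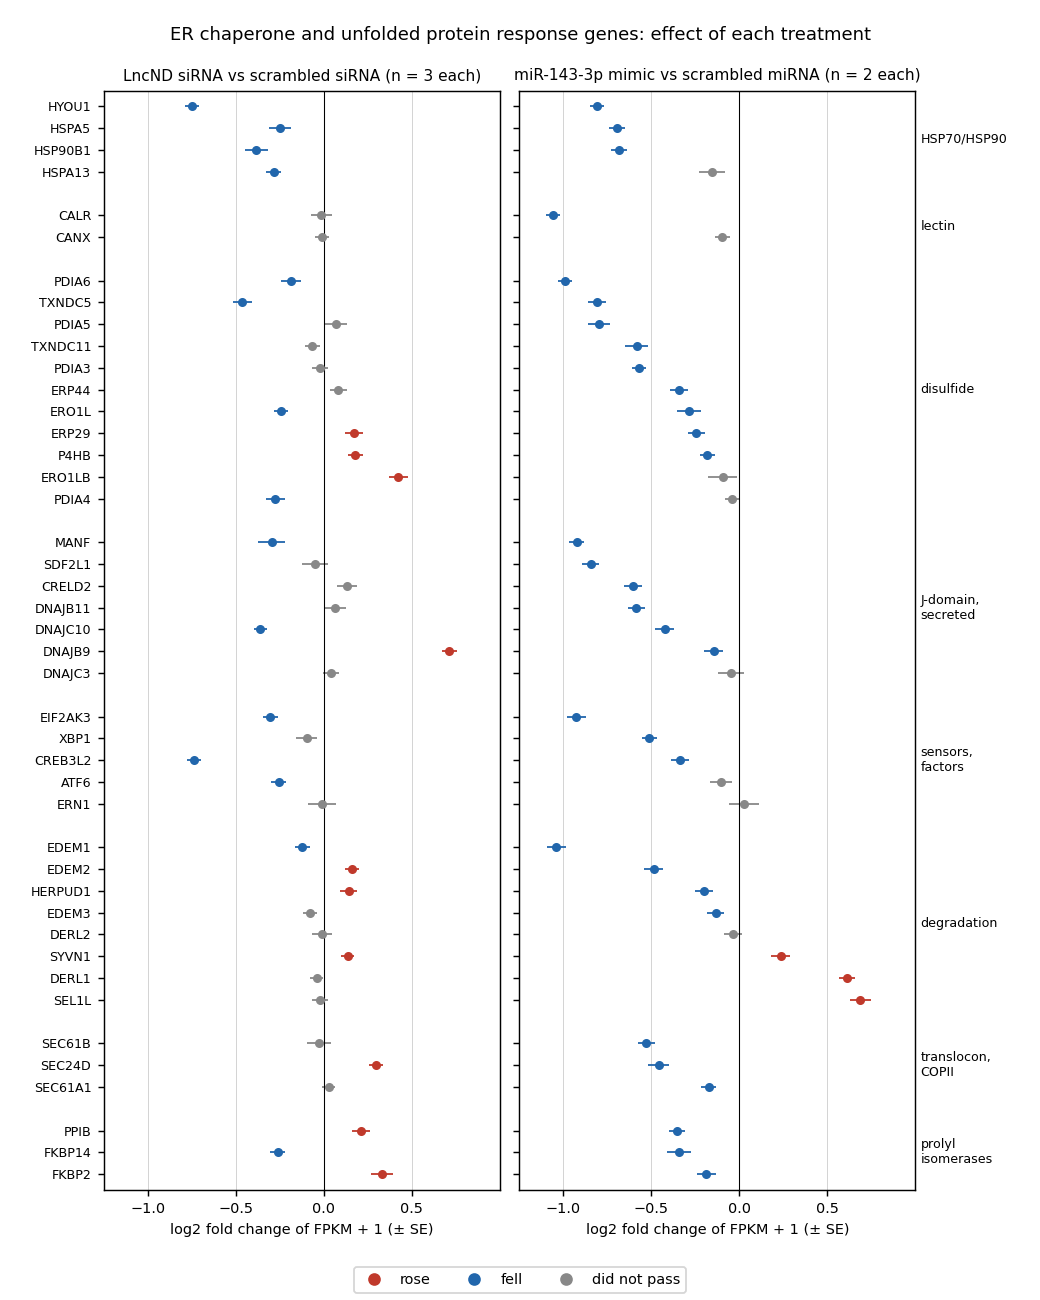
Log2 fold change (x axis, of FPKM + 1, points with SE bars) of the 43 tested genes, in rows grouped by role, for LncND siRNA against scrambled siRNA (left) and the mimic against scrambled miRNA (right). In the right panel 39 of 43 points lie below 0, and in the left panel 27 do.

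All 4 chaperones of the HSP70 and HSP90 families fell with LncND siRNA, and 3 of them fell with the mimic. Over all genes 30.3% and 38.6% fell. HSPA5 (chromosome 9, 127997126 to 128003666, in hg19 as for all gene positions), which encodes BiP, the chaperone that holds the stress sensors inactive, was at 116, 99.6 and 98.1 FPKM with LncND siRNA, against 128, 121 and 124 with scrambled siRNA. It was at 109 and 115 FPKM with the mimic, against 186 and 177 with scrambled miRNA. Every treated library was below every control library of its table (log2 fold change -0.25 ± 0.062, limma adjusted p = 0.0053 for LncND siRNA, and -0.70 ± 0.046, limma adjusted p = 1.63e-06 for the mimic). LncND siRNA replicate 1 was the highest of its group.

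HSP90B1 (chromosome 12, 104324111 to 104341708), the HSP90 of the ER, was measured at 263, 230.3 and 223 FPKM with LncND siRNA, against 321, 297 and 317 with scrambled siRNA. The mimic libraries were at 226 and 238 FPKM, against 374 and 372 with scrambled miRNA. The groups did not overlap in either table (log2 fold change -0.39 ± 0.065, limma adjusted p = 0.000469 for LncND siRNA, and -0.68 ± 0.045, limma adjusted p = 1.43e-06 for the mimic). Its pseudogene HSP90B2P was listed at a mean of 0.705 FPKM in the siRNA table, where HSP90B1 averaged 275 FPKM, and reads shared between the copies could not be told apart.

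HYOU1 (chromosome 11, 118914895 to 118927925), an HSP70-like exchange factor for BiP, showed the largest fall of the members with LncND siRNA on the log2(FPKM + 1) scale, while with a pseudocount of 0.1 CREB3L2 fell more (-0.79, against -0.76 for HYOU1). Its libraries were at 39.9, 37.3 and 37.0 FPKM, against 64.5, 63.7 and 65.9 with scrambled siRNA (log2 fold change -0.75 ± 0.040, limma adjusted p = 1.72e-07). With the mimic they were at 47.9 and 47.4 FPKM, against 84.3 and 84.0 with scrambled miRNA (log2 fold change -0.81 ± 0.041, limma adjusted p = 3.00e-07). The effects of the treatments did not differ beyond their error (0.057 ± 0.057, limma adjusted p = 0.41 for LncND siRNA minus mimic). HSPA13, an HSP70-like ATPase of the microsomes, fell with LncND siRNA (log2 fold change -0.28 ± 0.043, limma adjusted p = 0.000216) and overlapped between the mimic groups (log2 fold change -0.16 ± 0.073, limma adjusted p = 0.0884). The mimic value passed without mimic replicate 2 (-0.26, limma adjusted p = 0.0085) and without scrambled miRNA replicate 1 (-0.22, limma adjusted p = 0.0373), and was -0.056 without mimic replicate 1 (limma adjusted p = 0.505). Over the 9 alternatives for HSPA13 the adjusted p ran from 0.0085 to 0.505.

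The lectin chaperones parted. CALR (chromosome 19, 13049413 to 13055304), the soluble calcium-binding lectin calreticulin, was at 187 and 187 FPKM with the mimic, against 394 and 387 with scrambled miRNA. This was the largest fall of the members with the mimic on the log2(FPKM + 1) scale (log2 fold change -1.06 ± 0.042, limma adjusted p = 8.25e-08), with no overlap, while with a pseudocount of 0.1 EDEM1 fell more (-1.12, against -1.06 for CALR). The LncND siRNA libraries were at 299.5, 264 and 259 FPKM, against 281, 269 and 279 with scrambled siRNA, and the groups overlapped (log2 fold change -0.014 ± 0.059, limma adjusted p = 0.845). CANX (chromosome 5, 179125929 to 179158639), its membrane-bound relative calnexin, was at 114 and 119 FPKM with the mimic, against 124 and 125 with scrambled miRNA. Both mimic libraries were lower and the difference did not pass (log2 fold change -0.097 ± 0.042, limma adjusted p = 0.0668), except without mimic replicate 2 (-0.12, limma adjusted p = 0.0422), while it turned to 0.034 under quantile normalization (range of adjusted p over the alternatives 0.0422 to 0.581). With LncND siRNA CANX was at 96.8, 99.1 and 96.1 FPKM, against 101, 94.9 and 97.7 with scrambled siRNA, and overlapped (log2 fold change -0.0087 ± 0.039, limma adjusted p = 0.852).

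**Figure D2:**
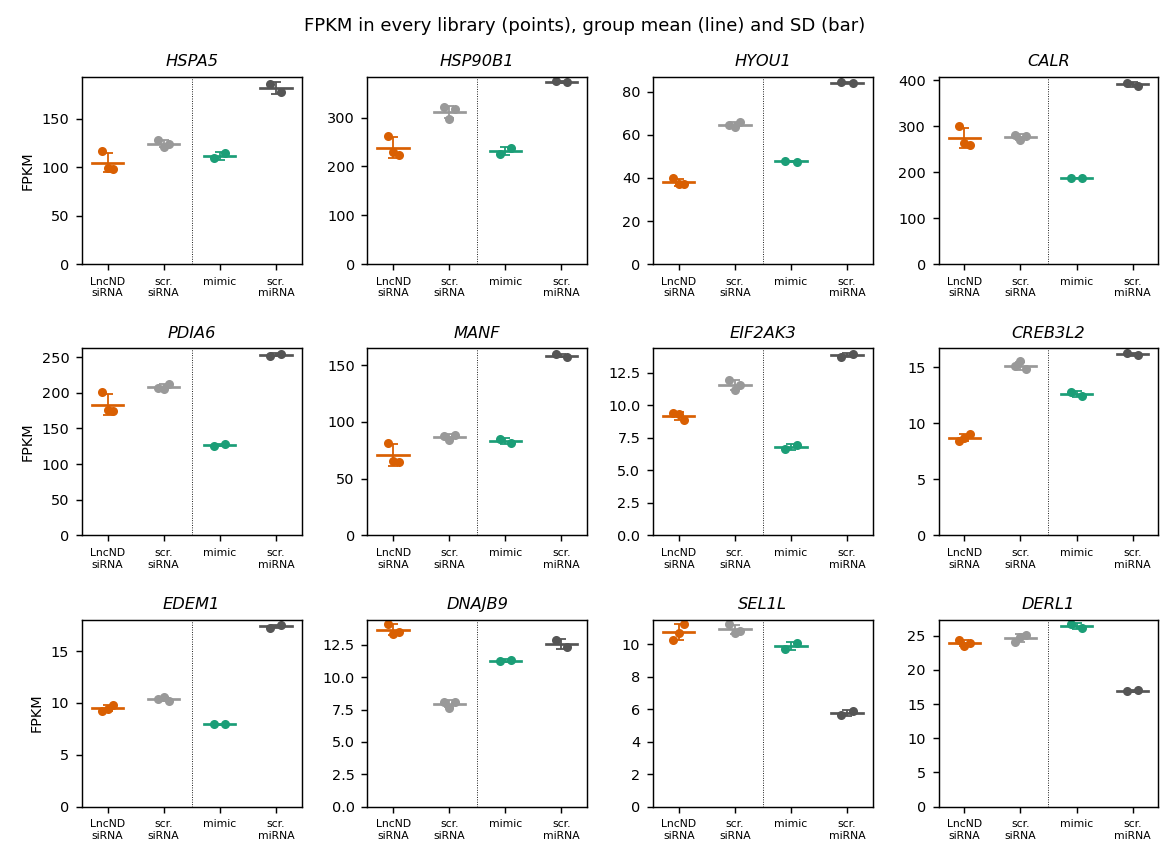
FPKM (y axes, from 0) of 12 genes in every library (points) with group mean (line) and SD (bar), in the order LncND siRNA, scrambled siRNA, mimic and scrambled miRNA, where the dotted line parts the separately normalized tables. The mimic libraries of HSPA5, HSP90B1, CALR and MANF lie below their scrambled miRNA libraries, and those of SEL1L and DERL1 lie above them.

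Of 11 disulfide isomerases, related thioredoxin-fold proteins and ER oxidases, 9 fell with the mimic and none rose, against 38.6% and 24.6% of all genes. All 11 had both mimic libraries below both scrambled miRNA libraries, as had 48.2% of all genes. With LncND siRNA 4 fell and 3 rose, against 30.3% and 36.6% of all genes. PDIA6 (chromosome 2, 10923516 to 10952960), an isomerase that also binds the stress sensors, was at 126 and 128 FPKM with the mimic, against 252 and 255 with scrambled miRNA (log2 fold change -0.99 ± 0.041, limma adjusted p = 1.05e-07). Levels with LncND siRNA were 201, 175 and 174 FPKM, against 207, 206 and 213 with scrambled siRNA (log2 fold change -0.19 ± 0.058, limma adjusted p = 0.0165). That smaller fall did not pass without LncND siRNA replicate 2 (-0.16, limma adjusted p = 0.0674), LncND siRNA replicate 3 (-0.15, limma adjusted p = 0.0629) or scrambled siRNA replicate 3 (-0.17, limma adjusted p = 0.0558), with adjusted p from 9.55e-05 to 0.0674 over the alternatives.

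TXNDC5 (chromosome 6, 7881482 to 7911047), an isomerase with repeated thioredoxin domains, fell in both comparisons. It was at 44.0, 39.2 and 38.2 FPKM with LncND siRNA, against 53.9, 58.2 and 56.1 with scrambled siRNA (log2 fold change -0.46 ± 0.055, limma adjusted p = 3.91e-05). Its mimic libraries held 34.4 and 31.6 FPKM, against 59.7 and 57.5 with scrambled miRNA (log2 fold change -0.81 ± 0.051, limma adjusted p = 1.20e-06). Its locus also belongs to the readthrough transcript BLOC1S5-TXNDC5, at a mean of 4.12 FPKM in the siRNA table, and the split of reads between them is uncertain.

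P4HB (chromosome 17, 79801033 to 79818544), the founding protein disulfide isomerase and a subunit of collagen prolyl hydroxylase, went opposite ways. It was at 205, 198 and 194 FPKM with LncND siRNA, against 173, 176 and 178 with scrambled siRNA, with no overlap (log2 fold change 0.18 ± 0.041, limma adjusted p = 0.00287). In mimic libraries the level was 177 and 169.8 FPKM, against 198 and 195 with scrambled miRNA (log2 fold change -0.18 ± 0.043, limma adjusted p = 0.00432), and under quantile normalization that fall shrank to -0.0046 (limma adjusted p = 0.93, range over the alternatives 0.00305 to 0.93). ERP29 (chromosome 12, 112451151 to 112461024), an isomerase-like protein without the active cysteine pair, was at 91.9, 86.8 and 80.9 FPKM with LncND siRNA, against 77.8, 73.4 and 78.6 with scrambled siRNA (log2 fold change 0.17 ± 0.051, limma adjusted p = 0.0132). The mimic libraries were at 70.6 and 75.8 FPKM, against 84.9 and 88.7 with scrambled miRNA (log2 fold change -0.24 ± 0.048, limma adjusted p = 0.00162). Neither table showed overlap, and the rise with LncND siRNA did not pass without scrambled siRNA replicate 2 (0.14, limma adjusted p = 0.0595, range over the alternatives 0.00345 to 0.0595).

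The ER oxidases, which recharge the isomerases, also differed from each other. ERO1LB (chromosome 1, 236378421 to 236445339), the form abundant in secretory cells, was at 2.08, 2.01 and 2.00 FPKM with LncND siRNA, against 1.26, 1.21 and 1.30 with scrambled siRNA, a rise with no overlap (log2 fold change 0.42 ± 0.054, limma adjusted p = 6.89e-05). With the mimic it was at 1.99 and 2.00 FPKM, against 2.31 and 2.08 with scrambled miRNA (log2 fold change -0.094 ± 0.082, limma adjusted p = 0.336). ERO1L fell with LncND siRNA (-0.24) and with the mimic (-0.29), where it did not pass when low-level genes were kept in (limma adjusted p = 0.0518, range over the alternatives 0.000247 to 0.0518). Among the others, PDIA4 fell with LncND siRNA (-0.28), and PDIA3, PDIA5, TXNDC11 and ERP44 fell with the mimic (-0.57, -0.80, -0.58 and -0.35). PDIA3 has a listed pseudogene, PDIA3P, at a mean of 5.77 FPKM beside 86.6 FPKM for PDIA3 in the siRNA table. ERP44, which carries oxidases back to the ER, passed as a rise with LncND siRNA only without scrambled siRNA replicate 1 (0.13, limma adjusted p = 0.0362, range over the alternatives 0.0362 to 0.38).

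Among the J-domain cochaperones and secreted stress proteins, 6 of 7 fell with the mimic, against 38.6% of all genes. MANF (chromosome 3, 51422691 to 51426828), a small protein secreted under ER stress that has neurotrophic activity, was at 84.8 and 81.1 FPKM with the mimic, against 159.5 and 157 with scrambled miRNA (log2 fold change -0.93 ± 0.043, limma adjusted p = 1.96e-07). With LncND siRNA it was at 81.7, 65.8 and 64.8 FPKM, against 87.2, 84.2 and 88.7 with scrambled siRNA (log2 fold change -0.30 ± 0.077, limma adjusted p = 0.00648). The groups did not overlap in either table, although LncND siRNA replicate 1 stood well above the other LncND siRNA libraries.

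SDF2L1 (chromosome 22, 21996541 to 21998588), a partner of BiP cochaperones, was at 20.1 and 19.6 FPKM with the mimic, against 35.5 and 37.3 with scrambled miRNA (log2 fold change -0.84 ± 0.048, limma adjusted p = 5.90e-07). The LncND siRNA libraries were at 24.4, 20.7 and 19.1 FPKM, against 21.6, 23.2 and 21.5 with scrambled siRNA, where replicate 1 lay above all controls and the other LncND siRNA libraries below them (log2 fold change -0.049 ± 0.075, limma adjusted p = 0.58). Without that replicate it passed as a fall (-0.14, limma adjusted p = 0.0248), and the adjusted p over the alternatives ran from 0.0248 to 0.903.

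DNAJB9 (chromosome 7, 108210188 to 108215294), a BiP cochaperone that restrains IRE1, showed the largest rise of the members with LncND siRNA. Its libraries were at 14.1, 13.4 and 13.5 FPKM, against 8.06, 7.64 and 8.11 with scrambled siRNA (log2 fold change 0.71 ± 0.042, limma adjusted p = 3.12e-07). With the mimic they were at 11.2 and 11.4 FPKM, against 12.9 and 12.3 with scrambled miRNA (log2 fold change -0.15 ± 0.054, limma adjusted p = 0.038). The groups did not overlap in either table. The small fall with the mimic passed in 2 of 9 alternatives, with adjusted p from 0.028 to 0.228, and did not pass without any single library of that table: it was -0.14, limma adjusted p = 0.0991 without mimic replicate 1, -0.15, limma adjusted p = 0.0687 without mimic replicate 2, -0.12, limma adjusted p = 0.228 without scrambled miRNA replicate 1 and -0.17, limma adjusted p = 0.0737 without scrambled miRNA replicate 2.

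DNAJC10 (chromosome 2, 183580767 to 183644750), a reductase that opens disulfides before degradation, fell in both comparisons. It was at 18.0, 18.6 and 17.8 FPKM with LncND siRNA, against 23.8, 22.8 and 24.2 with scrambled siRNA (log2 fold change -0.36 ± 0.039, limma adjusted p = 1.87e-05). The mimic libraries were at 20.8 and 22.2 FPKM, against 28.1 and 30.2 with scrambled miRNA (log2 fold change -0.42 ± 0.054, limma adjusted p = 0.000104), again without overlap, and the difference of the effects did not pass (0.064 ± 0.066, limma adjusted p = 0.425). DNAJB11 and the secreted protein CRELD2 fell with the mimic (-0.59 and -0.60) and did not pass with LncND siRNA. CRELD2 passed as a rise without LncND siRNA replicate 3 (0.19, limma adjusted p = 0.00614, range over the alternatives 0.00614 to 0.177). DNAJC3, an inhibitor of PERK, passed in neither comparison.

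Of the sensors and transcription factors, 3 of 5 fell in each comparison and none rose. Over all genes 30.3% fell with LncND siRNA and 38.6% with the mimic. EIF2AK3 (chromosome 2, 88856258 to 88927094), the kinase PERK, which slows translation under ER stress, was at 6.65 and 6.97 FPKM with the mimic, against 13.7 and 13.9 with scrambled miRNA (log2 fold change -0.93 ± 0.056, limma adjusted p = 8.98e-07). Levels with LncND siRNA were 9.38, 9.30 and 8.83 FPKM, against 11.9, 11.2 and 11.5 with scrambled siRNA (log2 fold change -0.30 ± 0.042, limma adjusted p = 0.000113). No treated library reached a control library.

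ERN1 (chromosome 17, 62120389 to 62207502), the sensor and RNase IRE1, was low in every group. It was at 1.62, 2.23 and 2.09 FPKM with LncND siRNA, against 1.98, 2.03 and 1.96 with scrambled siRNA (log2 fold change -0.010 ± 0.078, limma adjusted p = 0.913). Its mimic libraries held 1.87 and 1.97 FPKM, against 1.76 and 1.98 with scrambled miRNA (log2 fold change 0.025 ± 0.085, limma adjusted p = 0.808). Both pairs of groups overlapped, and LncND siRNA replicate 1 was the lowest library. ATF6 (chromosome 1, 161736033 to 161933860), a membrane-held factor freed by cleavage in the Golgi, was at 6.61, 6.63 and 7.01 FPKM with LncND siRNA, against 8.43, 8.19 and 8.15 with scrambled siRNA, a fall with no overlap (log2 fold change -0.26 ± 0.042, limma adjusted p = 0.000356). In mimic libraries the level was 7.97 and 8.60 FPKM, against 8.66 and 9.30 with scrambled miRNA, where both mimic libraries were lower and the difference did not pass (log2 fold change -0.10 ± 0.064, limma adjusted p = 0.185).

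XBP1 (chromosome 22, 29190547 to 29196560), whose mRNA IRE1 splices into its active form, was at 35.2 and 34.8 FPKM with the mimic, against 51.1 and 49.5 with scrambled miRNA (log2 fold change -0.51 ± 0.043, limma adjusted p = 7.42e-06). With LncND siRNA it was at 39.7, 35.6 and 35.2 FPKM, against 41.4, 36.3 and 40.6 with scrambled siRNA, and the groups overlapped (log2 fold change -0.098 ± 0.060, limma adjusted p = 0.173). It passed as a fall without LncND siRNA replicate 1 (-0.15, limma adjusted p = 0.0283) and without scrambled siRNA replicate 2 (-0.16, limma adjusted p = 0.0414), with adjusted p from 0.0283 to 0.441 over the alternatives. It also passed under quantile normalization. The value of a gene in these tables does not part spliced from unspliced XBP1.

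CREB3L2 (chromosome 7, 137559724 to 137686847), a membrane-held factor related to ATF6 that drives secretory genes, fell with both treatments and more with LncND siRNA. It was at 8.38, 8.69 and 9.01 FPKM with LncND siRNA, against 15.1, 15.5 and 14.8 with scrambled siRNA (log2 fold change -0.74 ± 0.041, limma adjusted p = 2.24e-07). With the mimic it was at 12.8 and 12.4 FPKM, against 16.3 and 16.1 with scrambled miRNA (log2 fold change -0.34 ± 0.051, limma adjusted p = 0.000304). The groups did not overlap in either table, and the effects differed (-0.40 ± 0.062, limma adjusted p = 9.65e-05 for LncND siRNA minus mimic).

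The 8 tested genes of ER-associated degradation included all 3 members that rose with the mimic, where 24.6% of all genes rose. SEL1L (chromosome 14, 81937890 to 82000205), the adaptor of the main degradation complex, was at 9.73 and 10.1 FPKM with the mimic, against 5.63 and 5.91 with scrambled miRNA (log2 fold change 0.69 ± 0.060, limma adjusted p = 9.43e-06). The LncND siRNA libraries were at 10.3, 10.7 and 11.2 FPKM, against 11.2, 10.7 and 10.8 with scrambled siRNA, and overlapped (log2 fold change -0.023 ± 0.044, limma adjusted p = 0.659). DERL1 (chromosome 8, 124025403 to 124054663), a channel protein of the same complex, was at 26.7 and 26.1 FPKM with the mimic, against 16.9 and 17.0 with scrambled miRNA (log2 fold change 0.61 ± 0.047, limma adjusted p = 3.88e-06). The LncND siRNA libraries were at 24.4, 23.5 and 23.9 FPKM, against 24.1, 24.8 and 25.2 with scrambled siRNA, and overlapped too (log2 fold change -0.041 ± 0.036, limma adjusted p = 0.334). For both genes the mimic libraries stood near the levels listed in the siRNA table, and the scrambled miRNA libraries stood below all other groups.

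SYVN1 (chromosome 11, 64894750 to 64902003), the ubiquitin ligase that SEL1L holds, rose with both treatments. It was at 16.3, 16.9 and 16.0 FPKM with LncND siRNA, against 15.0, 14.7 and 14.8 with scrambled siRNA (log2 fold change 0.14 ± 0.037, limma adjusted p = 0.00837). The mimic libraries were at 23.6 and 22.7 FPKM, against 20.3 and 18.7 with scrambled miRNA (log2 fold change 0.23 ± 0.054, limma adjusted p = 0.00394). It was the single member called up in both comparisons, which is 2.33% of the 43 members, against 12.6% of all genes tested in both tables (10% of the 10 that rose with LncND siRNA and 33.3% of the 3 that rose with the mimic). The row found under the other symbol of SELS, VIMP, a partner of the derlins, was at 47.4, 43.2 and 43.6 FPKM with LncND siRNA, against 33.1, 31.2 and 32.4 with scrambled siRNA (0.46 ± 0.044, limma adjusted p = 9.15e-06). With the mimic VIMP was at 52.0 and 47.5 FPKM, against 45.2 and 43.9 with scrambled miRNA (0.15 ± 0.052, limma adjusted p = 0.0251), so its treated libraries were above the controls in both tables.

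EDEM1 (chromosome 3, 5229358 to 5261650), a lectin that trims and hands over failed glycoproteins, was at 7.92 and 7.98 FPKM with the mimic, against 17.3 and 17.5 with scrambled miRNA (log2 fold change -1.04 ± 0.052, limma adjusted p = 3.00e-07). Levels with LncND siRNA were 9.24, 9.40 and 9.79 FPKM, against 10.4, 10.6 and 10.2 with scrambled siRNA (log2 fold change -0.12 ± 0.040, limma adjusted p = 0.0213). Neither table showed overlap. The small fall with LncND siRNA did not pass without LncND siRNA replicate 2 (-0.12, limma adjusted p = 0.0624), scrambled siRNA replicate 1 (-0.12, limma adjusted p = 0.0568) or scrambled siRNA replicate 2 (-0.11, limma adjusted p = 0.0707), with adjusted p from 0.00981 to 0.0707 over the alternatives. EDEM2 (chromosome 20, 33703159 to 33735161), which starts the trimming, was at 9.97, 9.73 and 9.58 FPKM with LncND siRNA, against 8.49, 8.81 and 8.59 with scrambled siRNA (log2 fold change 0.16 ± 0.039, limma adjusted p = 0.00425). Its mimic libraries held 7.72 and 7.75 FPKM, against 11.3 and 11.2 with scrambled miRNA (log2 fold change -0.49 ± 0.055, limma adjusted p = 4.70e-05), so the paralogs moved together with the mimic and apart with LncND siRNA. EDEM3 fell with the mimic (-0.14), a call that 2 of 9 alternatives kept, with adjusted p from 0.0233 to 0.26.

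HERPUD1 (chromosome 16, 56965747 to 56977793), a membrane protein that gathers the degradation complex, was at 22.0, 19.6 and 19.8 FPKM with LncND siRNA, against 18.5, 18.8 and 17.9 with scrambled siRNA (log2 fold change 0.14 ± 0.049, limma adjusted p = 0.0257). In mimic libraries the level was 20.8 and 21.9 FPKM, against 25.3 and 24.0 with scrambled miRNA (log2 fold change -0.20 ± 0.051, limma adjusted p = 0.0064). The groups did not overlap in either table and the changes were opposite. The rise with LncND siRNA did not pass without LncND siRNA replicate 1 (0.090, limma adjusted p = 0.0525), scrambled siRNA replicate 1 (0.15, limma adjusted p = 0.0573) or scrambled siRNA replicate 3 (0.12, limma adjusted p = 0.0893). Nor did it pass under median-ratio scaling (0.11, limma adjusted p = 0.0563) or when low-level genes were kept in (limma adjusted p = 0.0587). Its adjusted p over the alternatives ran from 0.0204 to 0.0893. The fall with the mimic did not pass under quantile normalization (-0.13, limma adjusted p = 0.0539) and was -0.17 without scrambled miRNA replicate 1. DERL2 passed in neither comparison, and DERL3 averaged 0.06 FPKM in the siRNA table and 0.0586 FPKM in the miRNA table.

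Of the 3 translocation and export genes, all fell with the mimic, and 1 rose with LncND siRNA, against 38.6% and 36.6% of all genes. SEC24D (chromosome 4, 119643977 to 119757326), the cargo adaptor of COPII vesicles that leave the ER, was at 26.4, 27.5 and 27.0 FPKM with LncND siRNA, against 22.4, 22.1 and 20.8 with scrambled siRNA (log2 fold change 0.30 ± 0.040, limma adjusted p = 8.96e-05). With the mimic it was at 16.8 and 16.7 FPKM, against 22.2 and 24.8 with scrambled miRNA (log2 fold change -0.46 ± 0.059, limma adjusted p = 0.000102), and neither table showed overlap. The translocon subunits SEC61A1 and SEC61B fell with the mimic (-0.18 and -0.53) and did not pass with LncND siRNA (0.028 and -0.028). SEC61B passed as a fall without LncND siRNA replicate 1 (-0.12, limma adjusted p = 0.0142, range over the alternatives 0.0142 to 0.906), and SEC61A1 did not pass with the mimic under quantile normalization (-0.082, limma adjusted p = 0.108, range over the alternatives 0.00467 to 0.108).

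All 3 prolyl isomerases fell with the mimic, against 38.6% of all genes. With LncND siRNA 2 rose and 1 fell, against 36.6% and 30.3% of all genes. PPIB (chromosome 15, 64448013 to 64455354), cyclophilin B, which helps fold collagen, was at 355, 324 and 319 FPKM with LncND siRNA, against 285, 280.4 and 296 with scrambled siRNA (log2 fold change 0.21 ± 0.053, limma adjusted p = 0.00517). The mimic libraries were at 269.5 and 273 FPKM, against 355 and 340.0 with scrambled miRNA (log2 fold change -0.36 ± 0.044, limma adjusted p = 8.89e-05). No libraries overlapped in either table. FKBP2 (chromosome 11, 64008412 to 64011607), a small luminal isomerase, was at 67.7, 60.0 and 59.2 FPKM with LncND siRNA, against 47.9, 46.5 and 53.3 with scrambled siRNA (log2 fold change 0.33 ± 0.063, limma adjusted p = 0.000926). Its mimic libraries held 55.0 and 54.6 FPKM, against 59.3 and 66.1 with scrambled miRNA, a fall without overlap (log2 fold change -0.19 ± 0.054, limma adjusted p = 0.0123). That fall did not pass under median-ratio scaling (-0.12, limma adjusted p = 0.0764) or quantile normalization (-0.096, limma adjusted p = 0.172). Nor did it pass when low-level genes were kept in (limma adjusted p = 0.0672), and it was -0.11 without scrambled miRNA replicate 2. FKBP14, which acts on collagens, fell in both (-0.26 with LncND siRNA and -0.34 with the mimic).

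Between the treatments, 12 of 43 members fell in both (27.9%), against 16.4% of the 12327 genes tested in both tables. They are 80% of the 15 that fell with LncND siRNA and 37.5% of the 32 that fell with the mimic. These shares are near those of all 43 members, of which 74.4% fell with the mimic and 34.9% with LncND siRNA. Of the 10 that rose with LncND siRNA, 8 fell with the mimic as well, so the fall with the mimic was about as frequent whichever way a member went with LncND siRNA. These 12 were HSPA5, HSP90B1, HYOU1, PDIA6, TXNDC5, DNAJC10, MANF, CREB3L2, EIF2AK3, EDEM1, ERO1L and FKBP14. Another 8 rose with LncND siRNA and fell with the mimic (P4HB, ERP29, DNAJB9, HERPUD1, EDEM2, SEC24D, FKBP2 and PPIB), which is 18.6% of members, against 10.6% of all genes. Under quantile normalization the fall with the mimic did not pass for P4HB, DNAJB9, HERPUD1 and FKBP2. Under median-ratio scaling it did not pass for DNAJB9 and FKBP2, and the rise of HERPUD1 with LncND siRNA did not pass. The share of all genes with opposite calls was not counted under these scalings. None fell with LncND siRNA and rose with the mimic, which 4.66% of all genes did. The comparisons share no library.

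Whether the effects differ was tested with limma on all 10 libraries together. The effect of LncND siRNA was higher than that of the mimic for 27 of 43 members (62.8%), against 38.1% of genes, and lower for 4 (9.3%), against 22% of genes. On the log2(FPKM + 1) scale the largest differences were those of CALR (1.05 ± 0.082, limma adjusted p = 2.06e-07), EDEM1 (0.92 ± 0.060, limma adjusted p = 4.31e-08), PDIA5 (0.87 ± 0.097, limma adjusted p = 5.92e-06) and DNAJB9 (0.86 ± 0.064, limma adjusted p = 1.38e-07). The 4 members with a lower effect were SEL1L (-0.71), DERL1 (-0.65), CREB3L2 (-0.40) and PDIA4 (-0.24). For HSP90B1 the difference (0.30 ± 0.091, limma adjusted p = 0.0126) did not pass under median-ratio scaling (0.20, limma adjusted p = 0.0596), under quantile normalization (0.11, limma adjusted p = 0.0967) or without mimic replicate 1 (0.26, limma adjusted p = 0.0559). That of SEC61A1 (0.20 ± 0.052, limma adjusted p = 0.00471) did not pass under median-ratio scaling (0.10, limma adjusted p = 0.0963) or quantile normalization (0.088, limma adjusted p = 0.181). That of PDIA4 did not pass without mimic replicate 1 (-0.22, limma adjusted p = 0.0543) or scrambled miRNA replicate 1 (-0.23, limma adjusted p = 0.0509). Without mimic replicate 1 the effect on HSPA13 (-0.23, limma adjusted p = 0.0355) and on ATF6 (-0.20, limma adjusted p = 0.046) passed as lower.

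**Figure D3:**
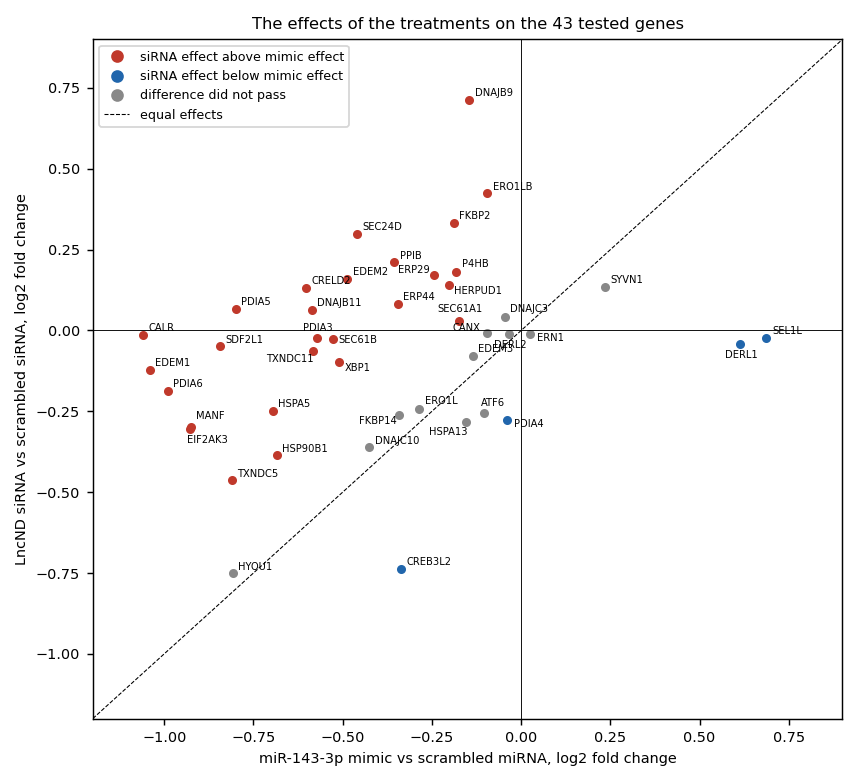
Log2 fold change of the 43 tested genes with LncND siRNA (y axis) against that with the mimic (x axis), coloured by the test of the difference of the effects. Most points lie above the dashed line of equal effects, and HYOU1 lies near it at -0.75 and -0.81.

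Members with an ERSE or ERSE-II match lay lower with the mimic than those without. Of the 10 with a match, 8 fell with the mimic, none rose and their median log2 fold change was -0.64. Of the 29 tested members whose window held no match, 21 fell, 2 rose and the median was -0.29. Among the 10, CANX and ERO1LB did not pass. With LncND siRNA the medians were alike, at -0.031 with a match (3 fell and 2 rose) and -0.023 without (11 fell and 7 rose). Over all tested genes 24 had such a match, among them these 10 members, with a median of -0.19 with the mimic (13 fell and 2 rose) and -0.060 with LncND siRNA (9 fell and 5 rose). The 14 of them that are no members had medians of -0.12 with the mimic (5 fell and 2 rose) and -0.080 with LncND siRNA (6 fell and 3 rose). The 10036 to 10046 genes without a match had -0.065 with the mimic and 0.02 with LncND siRNA. These are descriptions with no test.

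**Figure D4:**
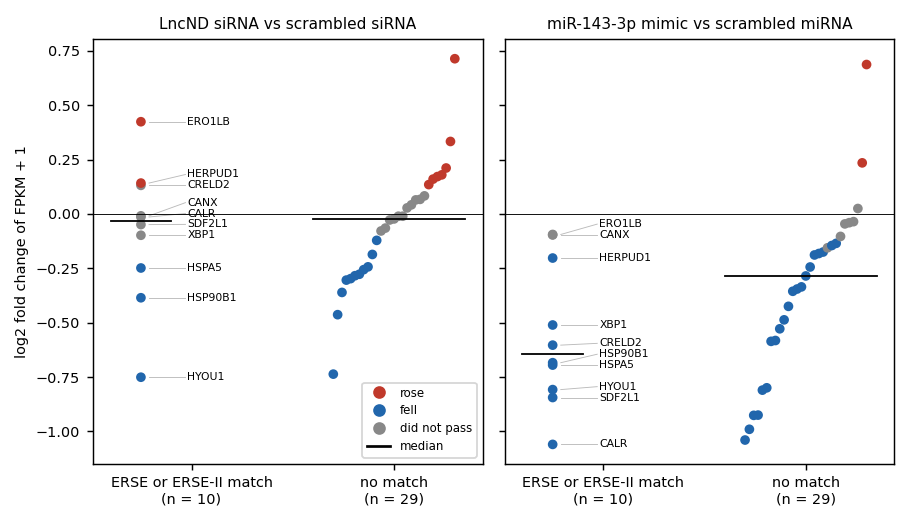
Log2 fold change (y axis) of tested members with an ERSE or ERSE-II match in the promoter window (named points) and without one, for LncND siRNA (left) and the mimic (right), with the group median as a line. In the right panel the median is -0.64 with a match and -0.29 without.

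Of the 12 tested members with a 3′ UTR match to the miR-143-3p seed, 8 fell with the mimic and 1 rose (median log2 fold change -0.39), and of the 31 without one, 24 fell and 2 rose (median -0.34). Over all tested genes with a UTR, the median was -0.14 with a match and -0.048 without. Of these genes 1217 of 2545 with a match fell and 487 rose, and 3398 of 9202 without one fell and 2423 rose. The 3 members with an 8-base match went 3 ways, as EIF2AK3 fell, SEL1L rose and HSPA13 did not pass. CALR, HYOU1, PDIA6, EDEM1, ERP44, DNAJC10 and FKBP14 carried 7-base matches and fell, while DNAJC3 and ERN1 carried one and did not pass. HSPA5, HSP90B1, MANF and SDF2L1 fell with no match in the transcript searched.

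The scrambled controls of the tables differed in level. For 34 of 43 members both scrambled miRNA libraries were above all 3 scrambled siRNA libraries, a pattern seen for 48.5% of the 12327 genes. For 4 members they were below, against 31.6% of genes. The median log2 ratio of scrambled miRNA to scrambled siRNA was 0.33 for the members and 0.084 for all genes. MANF, for example, averaged 83.0 ± 2.61 FPKM with the mimic and 158 ± 1.53 FPKM with scrambled miRNA (SD, n = 2 each), and 70.7 ± 9.51 FPKM with LncND siRNA and 86.7 ± 2.30 FPKM with scrambled siRNA (SD, n = 3 each). The mimic libraries of HSPA5, XBP1 and SDF2L1 were below the scrambled siRNA libraries, and those of CANX were above them. The tables were normalized separately, no test was made, and the controls, the transfected RNA and any run cannot be told apart.

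Downstream of PERK, whose gene EIF2AK3 fell with LncND siRNA, DDIT3 rose and ATF4 fell with that siRNA. DDIT3, the stress factor CHOP, averaged 16.1 ± 0.79 FPKM with LncND siRNA and 10.2 ± 0.47 FPKM with scrambled siRNA (SD, n = 3 each), with a log2 fold change of 0.61 ± 0.048, limma adjusted p = 2.23e-06. It averaged 15.2 ± 2.46 FPKM with the mimic and 24.4 ± 1.45 FPKM with scrambled miRNA (SD, n = 2 each), where the log2 fold change was -0.66 ± 0.090, limma adjusted p = 0.000159. ATF4, the factor upstream of it, averaged 118 ± 8.18 FPKM with LncND siRNA and 138 ± 5.79 FPKM with scrambled siRNA (SD, n = 3 each), with a log2 fold change of -0.23 ± 0.055, limma adjusted p = 0.00436. It averaged 105 ± 1.58 FPKM with the mimic and 114 ± 4.32 FPKM with scrambled miRNA (SD, n = 2 each), with -0.11 ± 0.044, limma adjusted p = 0.0487. That last fall passed in 2 of 9 alternatives, was 0.019 under quantile normalization and did not pass without any single library of its table: it was -0.13, limma adjusted p = 0.0527 without mimic replicate 1, -0.097, limma adjusted p = 0.125 without mimic replicate 2, -0.073, limma adjusted p = 0.34 without scrambled miRNA replicate 1 and -0.15, limma adjusted p = 0.0548 without scrambled miRNA replicate 2 (range over the alternatives 0.0463 to 0.717).

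Of 14 tested genes listed for PERK and ATF4, which include ATF4 and DDIT3 themselves, 8 rose and 3 fell with LncND siRNA. With the mimic 5 rose and 6 fell. Among all genes tested, 36.6% rose and 30.3% fell with LncND siRNA, and 24.6% rose and 38.6% fell with the mimic. On the log2(FPKM + 1) scale SESN2, a stress-induced inhibitor of mTORC1, rose most with LncND siRNA (0.71) and ASNS, asparagine synthetase, fell most (-0.26). With the mimic VLDLR, a lipoprotein receptor, rose most (1.10) and the stress factor ATF3 fell most (-0.82). The other sensors, proteases and factors split as well, with 7 up and 5 down of 14 for LncND siRNA and 3 up and 7 down for the mimic. MBTPS1, the Golgi protease that frees ATF6, rose with the mimic (log2 fold change 1.06 ± 0.047, limma adjusted p = 1.59e-07), while the ATF6 relative ATF6B fell (-0.50). With LncND siRNA PTPN1, an ER-bound phosphatase, rose (0.44) and NFYB, a subunit of NF-Y, fell (-0.30).

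Of 22 genes of signal peptide recognition and the translocon, 6 rose and 6 fell with LncND siRNA, and 3 rose and 10 fell with the mimic. The shares over all genes tested were 36.6% up and 30.3% down with LncND siRNA, and 24.6% up and 38.6% down with the mimic. The translocon-associated SSR4 rose most (0.65) and the signal peptidase subunit SPCS3 fell most (-0.63) with LncND siRNA, and SRPR, the receptor of the signal recognition particle, rose (0.59) and TRAM1 fell (-0.56) with the mimic. Of 18 genes of N-glycosylation and lectin quality control, 3 rose and 4 fell with LncND siRNA, and 2 rose and 12 fell with the mimic, among them the oligosaccharyltransferase subunit DAD1 (-0.90), against MCFD2, a cargo receptor subunit that rose (0.72). With LncND siRNA the oligosaccharyltransferase subunits TUSC3 and OSTC parted, with TUSC3 up (0.52) and OSTC down (-0.49).

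Of 19 other degradation genes, 9 rose and 2 fell with LncND siRNA, and 4 rose and 6 fell with the mimic. All genes tested had 36.6% up and 30.3% down with LncND siRNA, and 24.6% up and 38.6% down with the mimic. MAN1B1, the mannosidase that marks slow folders, rose most with LncND siRNA (0.72) and the ubiquitin chain factor UBE4B fell most (-0.20). The ligase RNF139 rose (0.33) and the glycanase NGLY1 fell (-0.59) with the mimic. Other folding and redox genes numbered 30 tested with LncND siRNA (12 up, 7 down) and 31 with the mimic (5 up, 16 down). The isomerase PDIA2 rose (0.94) and the sulfhydryl oxidase QSOX1 fell (-0.65) with LncND siRNA, and the calcium-binding CALU rose (0.87) and the cyclophilin PPIC fell (-0.89) with the mimic.

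Of 17 genes of the COPII coat and of retrieval receptors, 5 rose and 5 fell with LncND siRNA, and 2 rose and 9 fell with the mimic. KDELR3, which returns luminal chaperones from the Golgi, showed the largest fall of these lists with the mimic (log2 fold change -1.11 ± 0.067, limma adjusted p = 8.35e-07), and the COPII adaptor SEC24C rose (0.29). The coat regulator PREB fell (-0.53) and the lectin LMAN2L rose (0.45) with LncND siRNA. In each of these lists fewer genes fell with the mimic, as a share of those tested, than among the ER chaperone genes. That is a description of lists of unequal size, chosen with earlier results of these data known. Over all genes tested, 38.6% fell and 24.6% rose with the mimic, and 30.3% fell and 36.6% rose with LncND siRNA.

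**Figure D5:**
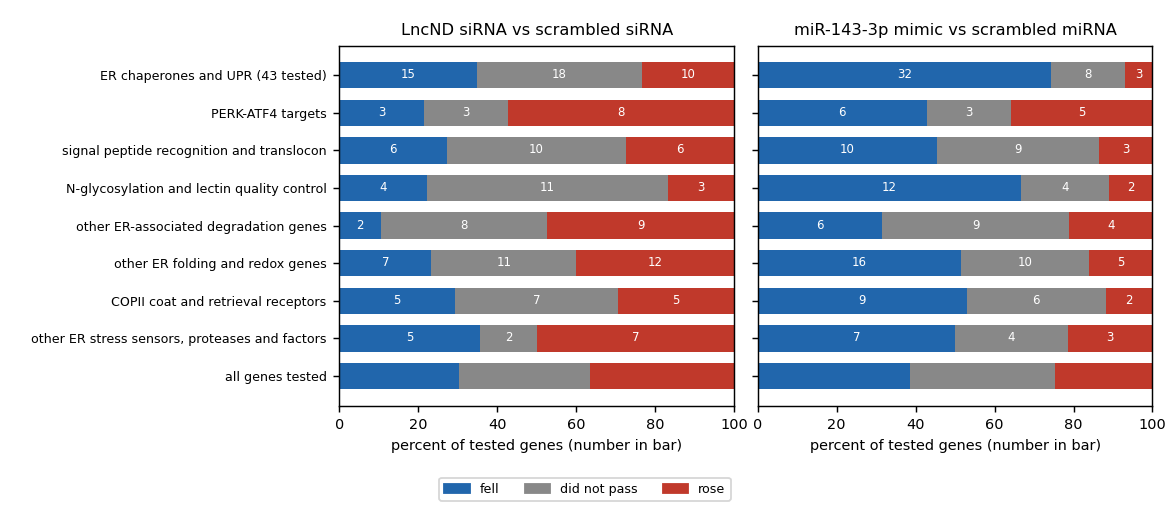
Percent of tested genes (x axis) that fell, did not pass or rose in each gene list, with numbers in the bars, for LncND siRNA (left) and the mimic (right). The top bar holds the 43 tested ER chaperone and unfolded protein response genes, of which 32 fell with the mimic, and the bottom bar all genes tested.

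Marker lists of cell types differed in level beside these results. Of 6 fibroblast genes listed (COL1A1, COL1A2, LUM, DCN, PDGFRA and PDGFRB), 5 were tested in each table, and all 5 fell with the mimic, with a summed level of 47.7 to 49.0 FPKM in mimic libraries and 88.2 to 91.1 FPKM in scrambled miRNA libraries. With LncND siRNA 2 rose and 3 fell, and the sum was 108 to 113 FPKM in LncND siRNA libraries and 85.7 to 89.5 FPKM in scrambled siRNA libraries. COL1A2 was below 0.1 FPKM in every library of the miRNA table. With LncND siRNA the summed levels were 6.39 to 6.75 FPKM for the Schwann and glial list, 3.42 to 3.95 FPKM for the epithelial list, 3.10 to 3.65 FPKM for the blood and endothelial list and 2845 to 2948 FPKM for the noradrenergic list. With scrambled siRNA the same sums, in the same list order, were 3.58 to 3.70, 1.04 to 1.30, 1.35 to 1.55 and 2159 to 2230 FPKM, so that all 4 lists were higher with LncND siRNA, with no overlap. With the mimic they were 3.41 to 3.49, 1.16 to 1.51, 1.05 to 1.57 and 3556 to 3563 FPKM. With scrambled miRNA they were 4.26 to 5.22, 1.46 to 1.73, 0.944 to 1.06 and 3476 to 3482 FPKM, so that the Schwann and glial sum was lower with the mimic and the noradrenergic sum higher, with no overlap, while the epithelial and blood and endothelial sums overlapped. Such sums follow the most abundant genes. Of 13 tested noradrenergic genes 8 rose and 4 fell with LncND siRNA, and 7 rose and 4 fell with the mimic. Their log2 fold changes ran from -0.86 to 1.17 with LncND siRNA and from -1.07 to 1.85 with the mimic. Over all genes tested, 36.6% rose and 30.3% fell with LncND siRNA, and 24.6% rose and 38.6% fell with the mimic. Only 1 of 6 Schwann and glial genes averaged 1 FPKM or more. The part of these lists in the results was not tested. All libraries came from 1 cell line, so the lists are read here as sets of genes and not as cell types present. In bulk RNA fewer cells expressing a gene and less of its RNA per cell cannot be told apart.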

How the data were processed

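Poly(A) RNA of SH-SY5Y cells was sequenced from stranded libraries, per the labels' protocols, and the submitters' processing notes name TopHat 1.0.0, Cufflinks and hg19. Sources used here give no annotation, strand setting or read filter. The authors deposited 1 table a comparison, in FPKM per the file headers. The column of LncND siRNA replicate 1 sums far past the others, so the deposited values are treated as a score on the authors' FPKM scale. FPKM hold no counts, so no count test was run, and no interval for counting error is given. Depth was estimated from the steps of low values and used in no test.

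Rows off assembled chromosomes (1304 of 25275) and those with a status word were left out, and of a repeated name the row with the highest mean was kept. Genes averaging 1 FPKM or more in a table were tested with limma 3.58.1 in R 4.3.3 on log2(FPKM + 1), 2-sided and with a trended prior, each table alone. P-values were adjusted by Benjamini-Hochberg over all genes of the table. The difference of the effects came from 1 fit of all 10 libraries. The procedure was tested on simulated data.

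Named with full values were, in each comparison, the 6 called members with the largest rise and the 6 with the largest fall, the sensors and main chaperones, and members called in opposite directions, and of each neighbouring list the called genes with the largest rise and fall, with ATF4 and DDIT3. The members and lists were chosen with earlier results of these data known. Alternatives were a pseudocount of 0.1, no filter, median-ratio scaling, quantile normalization, the replicate number as a block and each library left out. Promoter and miRNA sequences came from RefSeq (GRCh38.p14), 3′ UTRs from GENCODE 29, and gene positions, in hg19, from the tables. Protein sequences, and with them the retrieval signals at the ends of these chaperones, were not used here.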

Additional observations from a re-analysis of the deposited data

Results flagged for a closer look

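For 31 of the 43 tested genes the effect of LncND siRNA differed from that of the mimic, by the test of the difference in 1 limma fit of all 10 libraries, adjusted over 12327 genes. The values are differences of log2 fold changes, LncND siRNA minus mimic. The effect of LncND siRNA was the higher one for 27 of them, of which 12 differed most: CALR (1.05), EDEM1 (0.92), PDIA5 (0.87), DNAJB9 (0.86), PDIA6 (0.80), SDF2L1 (0.80), SEC24D (0.76), CRELD2 (0.73), DNAJB11 (0.65), EDEM2 (0.65), MANF (0.63) and EIF2AK3 (0.62). Of these only DNAJB9, SEC24D and EDEM2 combine a rise with LncND siRNA and a fall with the mimic. For the others the fall with the mimic was the larger change. The scrambled miRNA libraries of CALR, EDEM1 and PDIA5 were above all other groups, at averages of 390, 17.4 and 11.8 FPKM. With scrambled siRNA these genes averaged 276, 10.4 and 6.86 FPKM. DNAJB9 averaged 7.94 FPKM with scrambled siRNA, below all other groups, against 12.6 FPKM with scrambled miRNA. Those levels come from separately normalized tables and were not tested.

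Smaller differences of the same sign were those of PPIB (0.57), PDIA3 (0.55), FKBP2 (0.52), ERO1LB (0.52), TXNDC11 (0.52), SEC61B (0.50), HSPA5 (0.45), ERP44 (0.43), ERP29 (0.42) and XBP1 (0.41). The smallest were P4HB (0.36), TXNDC5 (0.35), HERPUD1 (0.34), HSP90B1 (0.30) and SEC61A1 (0.20). P4HB, ERP29, HERPUD1, PPIB and FKBP2, all in these ranges, rose with LncND siRNA and fell with the mimic.

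The effect of LncND siRNA was the lower one for SEL1L (-0.71), DERL1 (-0.65), CREB3L2 (-0.40) and PDIA4 (-0.24). SEL1L and DERL1, parts of one degradation complex, rose with the mimic and did not pass with LncND siRNA, CREB3L2 fell more with LncND siRNA, and PDIA4 passed only as a fall with LncND siRNA. For SEL1L and DERL1 the scrambled miRNA libraries were below both groups of the siRNA table, by averages of 5.77 and 16.9 FPKM with scrambled miRNA, against 10.9 and 24.7 FPKM with scrambled siRNA, a comparison of separately normalized tables with no test.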

How the results depend on the processing

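The main counts of the report stayed within 1.5 times under the alternatives run, with 1 exception. Members whose effect was lower with LncND siRNA than with the mimic numbered 4, but 7 under median-ratio scaling and 7 under quantile normalization, where HSPA13, ATF6 and SYVN1 joined, and 3 to 5 with 1 library left out; those with a higher effect numbered 25 under both scalings and 26 to 27 with 1 library left out. With 1 library left out, 9 to 11 members rose and 13 to 18 fell with LncND siRNA, and 3 rose and 29 to 32 fell with the mimic. Over all genes those ranges were 4228 to 4626 up and 3393 to 3970 down with LncND siRNA, and 2607 to 2843 up and 4167 to 4769 down with the mimic. Without LncND siRNA replicate 1, 9 members rose and 18 fell. The mimic's split over all genes, 3094 up and 4853 down as deposited, was 3931 and 4052 under median-ratio scaling and 4145 and 3854 under quantile normalization, while the members' median was -0.28 and -0.27. Every alternative kept the call of 8 of 10 rises and 13 of 15 falls with LncND siRNA, and of 3 of 3 rises and 25 of 32 falls with the mimic.

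Signs turned only for values that did not pass, and for ATF4 with the mimic (0.0186 under quantile normalization). With 1 library of the siRNA table left out the values ran from -0.0794 to 0.0260 for CALR, -0.0308 to 0.0145 for CANX, -0.1423 to 0.0253 for SDF2L1, -0.0717 to 0.0801 for ERN1, -0.0537 to 0.0063 for SEL1L, -0.0596 to 0.0476 for DERL2 and -0.1175 to 0.0207 for SEC61B; DNAJC3 was -0.0097 under quantile normalization and SEC61A1 -0.0013 under median-ratio scaling. With the mimic, median-ratio scaling gave 0.0298 for PDIA4, 0.0141 for DNAJC3 and 0.0332 for DERL2, and quantile normalization 0.0343 for CANX, 0.0482 for PDIA4, 0.0284 for DNAJC3 and 0.0516 for DERL2. With 1 of its libraries left out they ran from -0.1244 to 0.0327 for DNAJC3, -0.0749 to 0.0040 for DERL2 and -0.0289 to 0.0789 for ERN1. The causes were not tested.

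With the replicate block 11 members rose and 15 fell with LncND siRNA, and 3 rose and 33 fell with the mimic (4406 and 3616, and 3243 and 5004, over all genes), and the differences numbered 27 higher and 4 lower; CRELD2 (0.13, limma adjusted p = 0.0477) and HSPA13 with the mimic (limma adjusted p = 0.0158) passed. Libraries sharing a number deviated together by correlations of 0.068, 0.207 and -0.053 among siRNA libraries. Not every siRNA library correlated best with its own number. Among mimic and scrambled miRNA libraries the correlation was 0.135 for like numbers and -0.135 for unlike ones. With 2 libraries a group these values mirror each other by construction. Correlations this few and weak cannot tell whether libraries of like number were paired.

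With 2 or 3 libraries a group, and 1 left in a group when a mimic or scrambled miRNA library is left out, the lone library is assumed to vary like the other group. Depth was only estimated here, so no counting error stands beside low members such as ERN1, ERO1LB and DERL3. A call near the threshold (DNAJB9, EDEM3 and FKBP2 with the mimic, HERPUD1, EDEM1 and PDIA6 with LncND siRNA) was lost in 3 or more alternatives.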
